A study of Mus musculus with 24 samples.

Results

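The genes described here are 9 genes of liver glycogen metabolism: the liver glycogen synthase Gys2, the branching enzyme Gbe1, the liver glycogen phosphorylase Pygl, the protein phosphatase 1 targeting subunits Ppp1r3b, Ppp1r3c, Ppp1r3d and Ppp1r3g, the phosphorylase kinase subunit Phka2 and the glycogen-binding protein Stbd1. They were found by gene name among the spots of the array that are not controls, and where a gene had several probes the one with the highest mean mouse-channel (Cy5) signal was used. All 9 of 9 were on the array, which carried 37074 gene names, and all 9 were among the 18653 genes tested. The samples were the right liver lobes of 24 female C57BL/6JRcc mice, each housed alone and each measured on 1 Agilent 2-colour array. From weaning at 3 weeks of age they ate a semi-synthetic diet for 3 weeks, in which fat gave 16% of the energy, protein 20%, starch 32% and monosaccharides 32%. In 12 mice all of the monosaccharide was glucose (GLU), and in the other 12 galactose replaced it in part, at a ratio of 1:1 (GLU+GAL). All mice were killed at postnatal day 42 without food and in the light phase. Every value below is thus one of liver taken under these conditions from young females of 1 strain. The hour at which each mouse was killed, the length of the fast and the liver's glycogen content are not given in the sources used here.

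Glycogen is the liver's store of glucose. Glycogen synthase lengthens its chains and branching enzyme joins them into a tree, while phosphorylase releases glucose 1-phosphate from the chain ends. Phosphorylase kinase switches phosphorylase on by phosphorylation; protein phosphatase 1 switches phosphorylase off and synthase on, and reaches glycogen only when held there by a targeting subunit such as the members of the Ppp1r3 family. Stbd1 binds glycogen and is thought to carry it to lysosomes. Galactose enters liver metabolism through UDP-glucose, the same sugar donor that glycogen synthase uses.

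No member was called different between the diets by limma at an adjusted p of 0.05, and neither was any other gene: 0 of 18653 genes passed, a share of 0%. At an unadjusted p of 0.05, 804 genes passed, or 4.31% of those tested, and of the 9 members 1 did. That member was Ppp1r3b, lower in GLU+GAL, where 2.65% of all genes passed in that direction. The median difference of the 9 members was 0.02 on the log2 scale, 7 higher and 2 lower in GLU+GAL, against a median of 0.00 over all genes tested. What set the members apart from each other was how much they differed from mouse to mouse within a diet, and which other genes they followed.

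The 24 arrays lay on 3 slides of 4 mice per diet each. Of the lists of marker genes, all 6 hepatocyte genes were detected on every array, and the tissue label was borne out by them. Of these 6, 5 were lower in GLU+GAL, 3 at an unadjusted p of 0.05 in limma, with a median difference of -0.14. Their mean log2 ratio per mouse ranged from 0.24 to 0.82 in GLU and from 0.17 to 0.64 in GLU+GAL, lowest in mouse 4 of GLU+GAL. All 8 Kupffer cell (liver macrophage) genes were lower in GLU+GAL, 5 of them at an unadjusted p of 0.05. Their mean log2 ratio per mouse ranged from -0.14 to 0.77 in GLU and from -0.57 to 0.34 in GLU+GAL, and the part of either list in the results below was not tested. In whole liver, fewer cells of a type and less RNA per cell cannot be told apart. The array of mouse 4 of GLU+GAL stood apart: its pool channel correlated with the other arrays at 0.968, below the next lowest of 0.990, and it had the highest level of skeletal muscle genes (0.74) and of kidney and adrenal genes (0.57). Results that rest on this array are given with and without it.

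Values are log2 ratios of a mouse (Cy5) over a pool of the RNA of all mice (Cy3). The dyes were not swapped, so the distance of a gene from 0 can hold a dye effect of its probe, and only differences between mice are read. The 9 probes lay, in mm9 coordinates of the array's design, at chr6:142371157-142371216 (Gys2), chr16:70569840-70569899 (Gbe1), chr12:71291855-71291914 (Pygl), chr8:36451115-36451174 (Ppp1r3b), chr19:36806457-36806516 (Ppp1r3c), chr2:178145994-178146053 (Ppp1r3d), chr13:36061999-36062058 (Ppp1r3g), chrX:157029014-157029073 (Phka2) and chr5:93035508-93035567 (Stbd1). Gys2, Pygl, Ppp1r3c and Ppp1r3d are on the minus strand and the other 5 on the plus strand. An annotation of that build was not used here, so exons and UTRs are not assigned.

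The probe of Ppp1r3b bears on how its values can be read, and the sequences are shown for that reason. It opens with a run of 13 bases that alternate between G and T. The run occurred in 88 other probes of the array, which belong to other genes, and in no other probe of the 9 members. Below are 30 of the 60 bases of the Ppp1r3b probe and of the probes of the 3 genes whose log2 ratios followed it most closely across mice, with stretches of alternating G and T in capitals (bases 1 to 30, and for Synpo2l bases 31 to 60).
Ppp1r3b: GTGTGTGTGTGTGgtggaagagaatgattt
Sp110: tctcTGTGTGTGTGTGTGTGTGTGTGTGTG
Gm35410: GTGTGTGTGTGTGTGTGTGTGTtacttgag
Synpo2l: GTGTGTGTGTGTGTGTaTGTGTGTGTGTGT
The Sp110 run is 37 bases long in the whole probe, that of Gm35410 22 and the longest of Synpo2l 18. The 4 probes have the repeat in common and are designed for 4 different genes.

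Gys2, which makes glycogen in liver, ranged in GLU from -0.81 (mouse 8) over a median of -0.31 to 0.06 (mouse 7). In GLU+GAL it ranged from -0.58 (mouse 10) over a median of -0.39 to 0.60 (mouse 8). The diets overlapped, and mice 5, 7 and 8 of GLU+GAL, at 0.07, 0.45 and 0.60, were above every GLU mouse. The mean was -0.30 ± 0.25 in GLU and -0.22 ± 0.40 in GLU+GAL (SD, n = 12 each). The difference was 0.09 ± 0.13 (SE), a fold of 1.06 with a 95% interval from 0.885 to 1.27 (limma, adjusted p = 0.999).

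Gbe1, which adds the branch points, had nearly the same range in both diets. It ran from -0.83 to 0.08 in GLU, with a median of -0.35, and from -0.81 to 0.07 in GLU+GAL, with a median of -0.32. Each diet held 1 mouse well below the rest, mouse 12 of GLU and mouse 3 of GLU+GAL. The difference was 0.01 ± 0.10 (SE), a fold of 1.01 with a 95% interval from 0.881 to 1.16 (limma, adjusted p = 0.999).

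Pygl, which breaks glycogen down, ranged from -0.33 (mouse 2) over -0.11 to 0.22 (mouse 9) in GLU and from -0.52 (mouse 6) over -0.20 to 0.13 (mouse 12) in GLU+GAL. Of the GLU+GAL mice, 9 of 12 lay below the GLU mean, and the ranges overlapped. The difference was -0.09 ± 0.07 (SE), a fold of 0.937 with a 95% interval from 0.845 to 1.04 (limma, adjusted p = 0.999).

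Of the targeting subunits, Ppp1r3b encodes the form long known as the hepatic glycogen-targeting subunit GL. Its probe ranged from 0.67 (mouse 3) over 0.87 to 1.04 (mouse 9) in the 11 GLU mice with a value, since the spot of mouse 6 was flagged as an outlier and left out. In GLU+GAL it ranged from 0.35 (mouse 4) over 0.78 to 0.97 (mouse 9), and 10 of 12 mice were below the GLU mean. The mean was 0.86 ± 0.12 in GLU and 0.73 ± 0.17 in GLU+GAL, and the difference of -0.13 ± 0.06 (SE) had an unadjusted p of 0.0485 and an adjusted p of 0.999 in limma. Mouse 4 of GLU+GAL was the lowest of all, and without it the difference was -0.10 ± 0.06 (unadjusted p = 0.0949, limma). In Cy5 alone, without the pool channel, the difference was -0.02, and in the deposited value table it was 0.01, the opposite sign. Flagged spots were not left out of that table, so its difference includes mouse 6 of GLU and rests on an unlike set of mice.

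The other 88 probes with the GT run followed the Ppp1r3b probe. All 88 passed the filter on signal, against 47.0% of the probes with neither this run nor its complement. Across the mice, centred by diet, their correlation with Ppp1r3b had a median of 0.849 and was over 0.8 for 66 of them, against 2 of 26544 probes with neither run. Of the 25 probes most correlated with Ppp1r3b, 24 held the run. Of the 52 probes with the complementary CA run, the 46 that passed the filter had a median correlation of 0.395. In each mouse the median of the 88 was taken, and Ppp1r3b correlated with it at 0.882 (0.85 without mouse 4 of GLU+GAL). That median had a mean of 0.91 ± 0.18 in GLU and 0.83 ± 0.14 in GLU+GAL, a difference of -0.08 on probes of other genes. The GLU mean holds mouse 6, the lowest of its diet at 0.61, which has no Ppp1r3b value. The difference of -0.08 and that of Ppp1r3b therefore rest on unlike sets of mice. Ppp1r3b less that median, which leaves out mouse 6 of GLU, differed between the diets by -0.03. These correlations describe 24 arrays that share a pool, and the probes share a sequence. Signal from the Ppp1r3b transcript and signal that the repeat shares with other transcripts cannot be told apart on this probe, the only one for the gene.

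**Figure D1:**
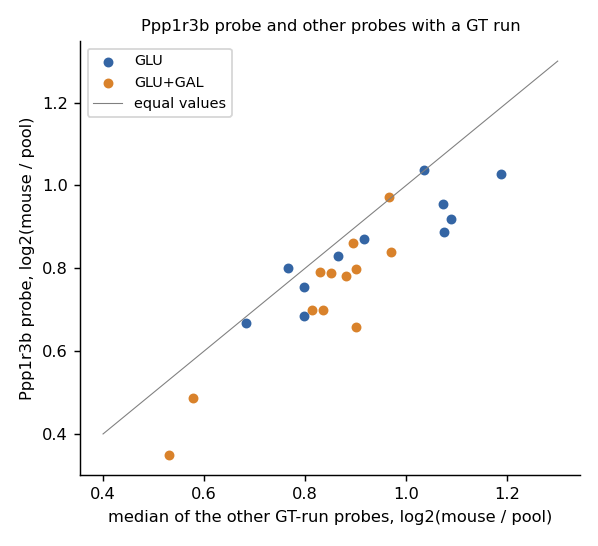
Log2 ratio of the Ppp1r3b probe (vertical) against the median log2 ratio of the 88 other probes that hold a 13-base GT run (horizontal), 1 point per mouse, GLU in blue and GLU+GAL in orange, with the line of equal values in grey. The points follow the line in both diets, and mouse 4 of GLU+GAL is the lowest of all on the vertical axis, at 0.35.

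Ppp1r3c, also known as protein targeting to glycogen, was among the most variable genes of the liver in these mice. It ranged from -0.78 (mouse 10) over 0.28 to 0.80 (mouse 2) in GLU and from -0.50 (mouse 5) over 0.36 to 1.26 (mouse 9) in GLU+GAL. High and low mice occurred in both diets, and from the lowest to the highest mouse the level rose 4.12-fold. Its within-diet SD of 0.52 was at percentile 98.9 of the genes tested. The difference between diets was 0.15 ± 0.19 (SE), a fold of 1.11 with a 95% interval from 0.841 to 1.46 (limma, adjusted p = 0.999).

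Ppp1r3g, a subunit known to be raised in fasted mouse liver, varied most of the 9. It ranged from -1.08 (mouse 9) over -0.17 to 0.48 (mouse 4) in GLU and from -1.05 (mouse 9) over -0.05 to 0.90 (mouse 3) in GLU+GAL. In GLU 4 mice lay at -0.66 or lower, in GLU+GAL 2 mice lay at -1.04 or lower, and the rest lay between -0.32 and 0.90. Its within-diet SD was 0.59, at percentile 99.3 of the genes tested, and the span from the lowest to the highest mouse was 3.94-fold. The size of this spread depends on the processing. The SD was 0.67 in Cy5 alone, 0.72 in the deposited value table and 0.89 with the scanner software's processed signals. Its Cy5 signals lay between 97.7 and 592 intensity units as scanned. The difference was 0.15 ± 0.22 (SE), and the 95% interval of the fold, from 0.809 to 1.52, was the widest of the 9 (limma, adjusted p = 0.999).

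Ppp1r3d was measured least well. It was well above background in 6 of 12 GLU mice and 6 of 12 GLU+GAL mice, and its pool channel on 1 of 24 arrays, with Cy5 signals between 57.2 and 92.1 intensity units as scanned. Its log2 ratio ranged from -0.44 to 0.22 in GLU and from -0.43 to 0.18 in GLU+GAL, with mouse 4 lowest in each diet. The difference was 0.01 ± 0.08 (SE), with a 95% interval from -0.15 to 0.16 (limma, adjusted p = 0.999), and it was 0.043 without mouse 4 of GLU+GAL.

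Phka2, the liver form of the alpha subunit of phosphorylase kinase, had the lowest spread of the 9 main probes. It ranged from -0.34 (mouse 12) over -0.14 to 0.02 (mouse 3) in GLU and from -0.27 (mouse 5) over -0.05 to 0.14 (mouse 8) in GLU+GAL, and 9 of 12 GLU+GAL mice lay above the GLU mean. The ranges overlapped. The difference was 0.09 ± 0.05 (SE), a fold of 1.06 with a 95% interval from 0.989 to 1.14 (unadjusted p = 0.0945, adjusted p = 0.999, limma). It was positive within each slide, at 0.17, 0.05 and 0.05. The 3 other probes of the gene gave 0.12, 0.09 and 0.03, but followed the main probe only loosely across mice, with correlations of 0.163, 0.438 and 0.170 in the same order. Their within-diet SDs were 0.29, 0.14 and 0.19 against 0.12 for the main probe, so the low spread is that of 1 probe.

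Stbd1, the glycogen-binding protein, ranged from -0.69 (mouse 12) over -0.35 to 0.17 (mouse 5) in GLU and from -0.84 (mouse 2) over -0.38 to 0.42 (mouse 7) in GLU+GAL. As for Gys2, mice 7 and 8 of GLU+GAL were the highest of all, here at 0.42 and 0.36. The difference was 0.02 ± 0.13 (SE), a fold of 1.01 with a 95% interval from 0.840 to 1.22 (limma, adjusted p = 0.999). Its within-diet SD of 0.35 was at percentile 95.4.

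**Figure D2:**
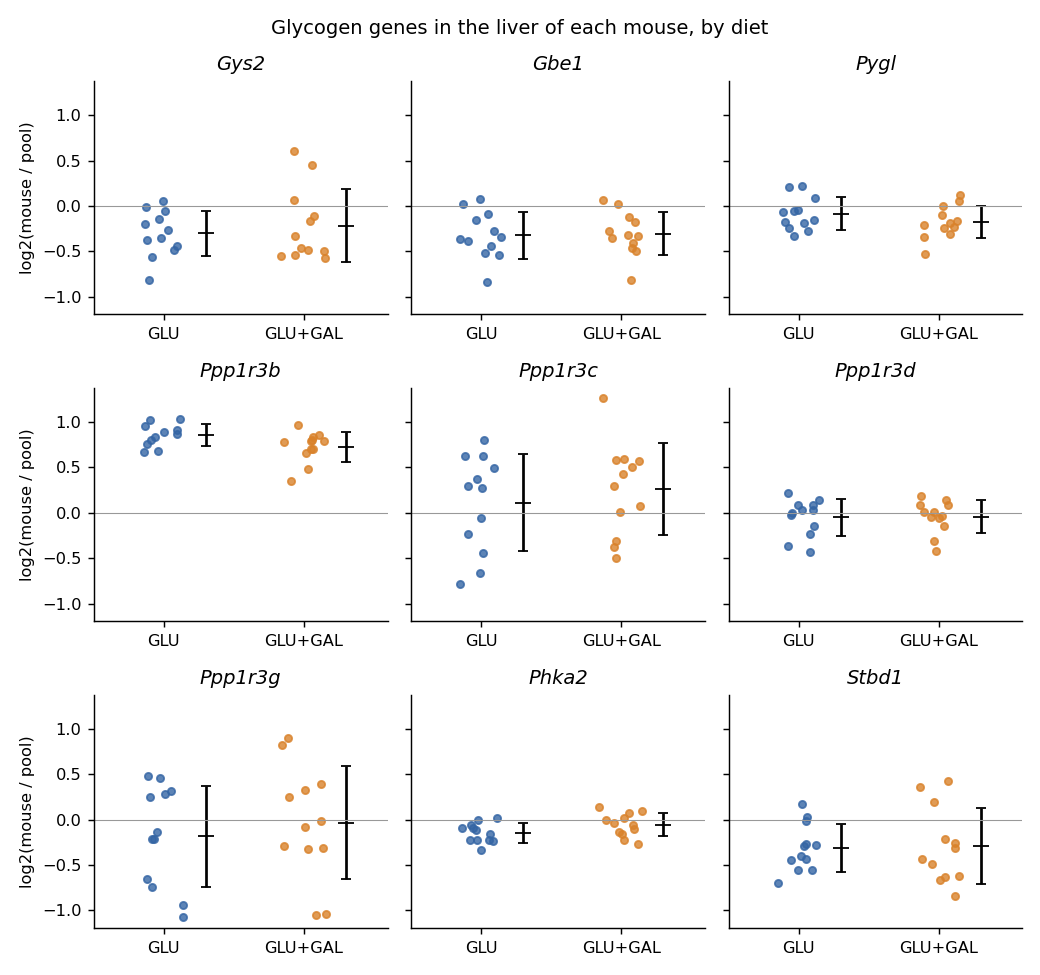
Log2 ratio of each mouse over the pool for the 9 genes, 1 point per mouse (12 per diet, 11 for Ppp1r3b in GLU), GLU in blue and GLU+GAL in orange, with the mean and SD in black. The diets overlap in every gene, Ppp1r3c and Ppp1r3g spread most within a diet, and Phka2 least.

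**Figure D3:**
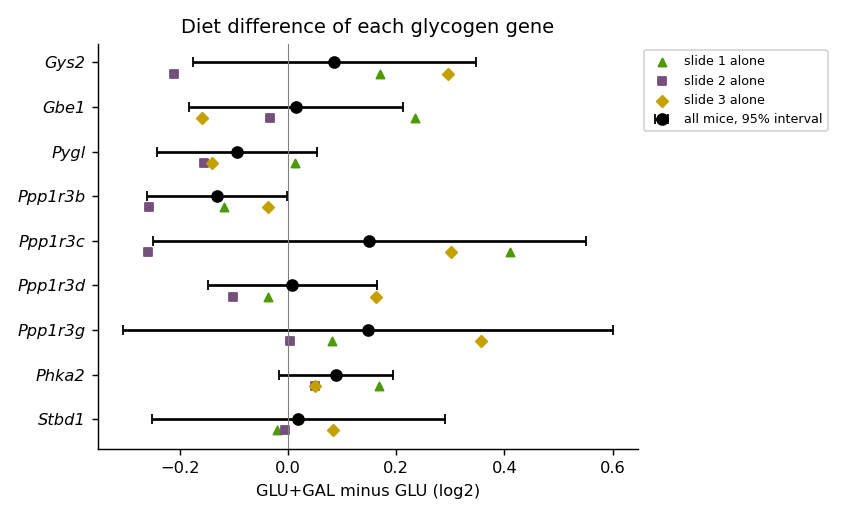
Difference between the diets (GLU+GAL minus GLU, log2) of each gene with its 95% interval over all mice (black), and within each of the 3 slides (coloured markers). The interval of Ppp1r3b, from -0.26 to -0.00, ends just below 0 before adjustment, those of the other 8 genes include 0, and Ppp1r3b, Ppp1r3g and Phka2 have the same sign on each slide.

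By within-diet SD the order was Ppp1r3g (0.59), Ppp1r3c (0.52), Stbd1 (0.35), Gys2 (0.34), Gbe1 (0.25), Ppp1r3d (0.19), Pygl (0.18), Ppp1r3b (0.15) and Phka2 (0.12). The first 4 were at or above percentile 94.8 of the genes tested and Gbe1 was at percentile 85.2, while Pygl was at 57.6, Ppp1r3b at 36.4 and Phka2 at 14.1. Neighbours in this order were not tested against each other. The order is that of the log2 ratios, and the SD of Ppp1r3d, near background, was 0.19 here, 0.72 with the scanner software's processed signals and 0.40 in the deposited value table.

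The order also depends on the probe, as the SDs of the Phka2 probes above show. A second Gbe1 probe in the same part of the gene, at chr16:70569433-70569492, followed the first at a correlation of 0.857, had a within-diet SD of 0.24 against 0.25, and differed between the diets by 0.03. Another, at chr16:70361835-70361894 and well above background on 16 of 24 arrays, correlated with it at -0.279 and had an SD of 0.24. A second Stbd1 probe, at chr5:93035133-93035192, followed the first at 0.953, had an SD of 0.36 against 0.35, and differed by 0.00 between the diets. Another, at chr5:93033665-93033724, correlated with the first at -0.121, had an SD of 0.14 and differed by 0.11 ± 0.06 (unadjusted p = 0.0625, limma). Which transcripts these last probes of either gene detect was not tested.

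Other genes of glycogen metabolism and its control were taken as a list of 45 names, of which 43 were on the array and 39 were tested. None was called at an adjusted p of 0.05 in limma, 23 were higher and 16 lower in GLU+GAL, and the median difference was 0.03. At an unadjusted p of 0.05, 1 was higher and 1 lower, against 1.66% and 2.65% of all genes. The higher was Slc2a2, the glucose transporter GLUT2 of hepatocytes, with means of 0.24 in GLU and 0.43 in GLU+GAL and a difference of 0.19 ± 0.09 (SE; unadjusted p = 0.0414, adjusted p = 0.999, limma).

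The genes that partner the members showed smaller differences. The other phosphorylase kinase subunits, Phka1, Phkb, Phkg1 and Phkg2, differed by 0.10, 0.05, 0.09 and 0.07, the same sign as Phka2, and the lowest unadjusted p among these 4 was 0.0691 (limma, adjusted p = 0.999). The muscle and brain phosphorylases Pygm and Pygb differed by 0.16 and 0.07, and Gys1, the synthase of muscle and most other tissues, by 0.03. Ugp2, which makes UDP-glucose, differed by 0.11 (unadjusted p = 0.168, limma). Of the remaining targeting subunits Ppp1r3e differed by -0.01, and Ppp1r3a and Ppp1r3f did not pass the filter on signal.

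Covariation was asked of log2 ratios with the diet means removed, first among the members. Of 36 pairs, 0 passed an adjusted p of 0.05 for Pearson's r in a permutation test. The strongest was Gbe1 with Pygl, the branching enzyme with the phosphorylase. Their r was 0.603 (permutation p = 0.00195, adjusted 0.0702) and their rho 0.623 (adjusted 0.0446), so that this pair passed by rank and missed by Pearson's r. It was 0.569, 0.194 and 0.701 within slides 1, 2 and 3, and 0.639 without the 2 mice most extreme in Gbe1. Gys2 and Stbd1 had an r of 0.556 (adjusted permutation p = 0.0864). Without mice 7 and 8 of GLU+GAL the r of that pair was 0.224. It was -0.193 among GLU mice and 0.85 among GLU+GAL mice, a difference that was not tested. Within slides 1, 2 and 3 it was 0.567, 0.568 and 0.699, and slide 2 held neither mouse 7 nor mouse 8 of GLU+GAL. The lowest r was that of Gys2 and Pygl, synthase and phosphorylase, at -0.417 (adjusted permutation p = 0.310). Over all 36 pairs the median r was 0.116.

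The members were then set against 14 genes that mark feeding state or time of day in liver, of which 13 are named here: Pck1, G6pc, Ppargc1a, Igfbp1, Angptl4 and Pdk4, which rise in fasting, Srebf1, Fasn and Pklr, which rise on feeding, and the clock genes Arntl, Dbp, Per1 and Nr1d1. Of 126 pairs, 11 passed an adjusted p of 0.05, 8 with a positive and 3 with a negative r, and 9 of the 11 also by Spearman's rho. Of the 11, 10 had 1 sign on all 3 slides.

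Gys2 passed with 2 of the 4 clock genes. Arntl encodes BMAL1, the activator of the molecular clock, and Dbp is an output gene whose peak lies roughly opposite to that of Arntl. Gys2 fell as Arntl rose, with r = -0.828 and rho = -0.780 (permutation p = 0.00001 for r, the smallest that the 100000 resamples can give, and adjusted p = 0.00063). Of the genes tested that have a RefSeq symbol, Arntl had the lowest correlation with Gys2. The r was -0.749, -0.856 and -0.967 within slides 1, 2 and 3, and -0.823 without mouse 4 of GLU+GAL. It was -0.476 among GLU mice and -0.977 among GLU+GAL mice, and this difference was not tested. Mice 7 and 8 of GLU+GAL, with the highest Gys2, had the lowest Arntl, -1.08 and -1.42, against a range from -0.67 to 1.13 in GLU. Without both, r was -0.675. Gys2 rose with Dbp (r = 0.732, rho = 0.658, adjusted permutation p = 0.00220), and r was 0.582 without the same 2 mice. With Per1 and Nr1d1 its r was 0.310 and 0.324, and neither passed (adjusted permutation p = 0.397 and 0.365).

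Gys2 also fell as Pdk4 rose, the kinase that blocks pyruvate oxidation in fasting (r = -0.636, rho = -0.672, adjusted permutation p = 0.0149). The r was -0.766, -0.761 and -0.749 within slides 1, 2 and 3 and -0.515 without mice 7 and 8 of GLU+GAL. It missed the threshold with the scanner software's processed signals (-0.522, adjusted permutation p = 0.107) and in Cy5 alone (-0.520, adjusted permutation p = 0.0931). Among GLU and GLU+GAL mice it was -0.287 and -0.793, a difference that was not tested. With the fasting genes Pck1, G6pc, Ppargc1a, Igfbp1 and Angptl4 the r of Gys2 was 0.183, -0.050, 0.194, 0.027 and 0.073. With the feeding genes Fasn, Srebf1 and Pklr it was -0.535, -0.397 and -0.390. None of these pairs passed (lowest adjusted permutation p = 0.0739, for Fasn).

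Stbd1 passed with the same 2 clock genes by Pearson's r. Its r was -0.666 with Arntl (adjusted permutation p = 0.0123) and 0.619 with Dbp (adjusted permutation p = 0.0198), while by rank neither passed (rho = -0.514 and 0.481, adjusted permutation p = 0.107 and 0.140). Without mice 7 and 8 of GLU+GAL the r values were -0.435 and 0.425. The r with Arntl was -0.761, -0.401 and -0.776 within slides 1, 2 and 3, and that with Dbp 0.679, 0.592 and 0.588. Among GLU and GLU+GAL mice it was -0.263 and -0.836 with Arntl and 0.203 and 0.764 with Dbp, differences that were not tested. The r with Arntl missed the threshold with the scanner software's processed signals (-0.586, adjusted permutation p = 0.0529) and with median centring (-0.511, adjusted permutation p = 0.0696). With Per1 and Nr1d1 r was 0.452 and -0.008, and neither passed (adjusted permutation p = 0.167 for Per1).

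Ppp1r3c had the opposite signs, with r = 0.490 for Arntl and -0.443 for Dbp, and neither passed (adjusted permutation p = 0.110 and 0.179). The promoter window of Ppp1r3c is shown because it holds the E-box CACGTG, the letters that the BMAL1 and CLOCK proteins bind, beside that of Stbd1, which does not. These are the 250 bases before the gene start in RefSeq on GRCm38.p6, at chr19:36736605-36736854 on the minus strand and chr5:92602801-92603050 on the plus strand, with CACGTG in capitals.
Ppp1r3c: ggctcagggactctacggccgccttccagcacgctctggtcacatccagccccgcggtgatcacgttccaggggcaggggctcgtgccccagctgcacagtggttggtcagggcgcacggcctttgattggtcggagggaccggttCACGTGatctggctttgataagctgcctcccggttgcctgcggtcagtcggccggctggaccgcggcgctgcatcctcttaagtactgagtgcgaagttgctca
Stbd1: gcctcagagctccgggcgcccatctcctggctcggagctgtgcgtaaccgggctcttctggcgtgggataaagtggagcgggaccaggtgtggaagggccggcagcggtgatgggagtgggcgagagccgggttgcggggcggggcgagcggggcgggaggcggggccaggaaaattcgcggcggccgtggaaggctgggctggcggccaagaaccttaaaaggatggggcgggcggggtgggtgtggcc
In Ppp1r3c the 6 letters begin 104 bases before the start. Of the 9 members 7 had an entry, all but Gys2 and Ppp1r3b, and CACGTG, which reads the same on both strands, occurred in the windows of Ppp1r3c and Ppp1r3d. It occurred in 6.02% of 32851 windows of this length. TTATGTAA, a sequence that DBP binds, was searched on both strands and occurred in none of the 7, against 0.819% of all. Ppp1r3d, near background, had r = -0.186 with Arntl and 0.062 with Dbp, and neither passed (adjusted permutation p = 0.713 and 0.939). A match is a description of letters only, and its relation to these r values was not tested.

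Gbe1 passed with 1 feeding gene and Pygl with 2. Gbe1 followed Pklr, the liver pyruvate kinase, with r = 0.815 and rho = 0.736 (adjusted permutation p = 0.00063 for r, from an unadjusted p at the smallest the resamples can give). The mice at the ends were the same in both genes: mouse 12 of GLU and mouse 3 of GLU+GAL, lowest in Gbe1, were also lowest in Pklr, and without them r was 0.675. Within slides it was 0.788, 0.135 and 0.935, so that slide 2 showed little of it. With Fasn and Srebf1 the r of Gbe1 was 0.483 and 0.054, and neither passed (adjusted permutation p = 0.124 and 0.939). Pygl followed Fasn, the fatty acid synthase, with r = 0.751 and rho = 0.707 (adjusted permutation p = 0.00168), and Pklr with r = 0.607 and rho = 0.692 (adjusted permutation p = 0.0223). With Srebf1 its r was 0.344 (adjusted permutation p = 0.346). The r of Pygl with Fasn was 0.926 on slide 1 and 0.883 on slide 3 but -0.049 on slide 2, and that with Pklr was 0.572, 0.849 and 0.018 in the same order. With the scanner software's processed signals both missed the threshold (r = 0.553 and 0.516, adjusted permutation p = 0.0885 and 0.107), and without mouse 12 of GLU+GAL the second did (r = 0.555, adjusted permutation p = 0.0688).

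Of the 6 fasting genes, Ppp1r3b passed with 2 and Ppp1r3g with 1. The Ppp1r3b probe rose with G6pc, glucose 6-phosphatase (r = 0.628, rho = 0.688, adjusted permutation p = 0.0198, 23 mice), and with Pck1, the gluconeogenic PEP carboxykinase (r = 0.602, rho = 0.602, adjusted permutation p = 0.0252). Within slides 1, 2 and 3 r was 0.795, 0.685 and 0.429 with G6pc and 0.502, 0.452 and 0.699 with Pck1. The median of the 88 other GT-run probes correlated with the same genes at 0.555 and 0.601 over 24 mice, so the relation cannot be told apart from that of the repeat. The call with G6pc was lost in Cy5 alone (r = 0.163, adjusted permutation p = 0.757), with the scanner software's processed signals (0.406, adjusted permutation p = 0.226), with median centring (0.515, adjusted permutation p = 0.0696) and in the deposited value table (0.461, adjusted permutation p = 0.125). The r in that table includes mouse 6 of GLU, which the main r leaves out. The call with Pck1 was lost without mouse 4 of GLU+GAL (0.518, adjusted permutation p = 0.120) and in Cy5 alone (0.558, adjusted permutation p = 0.0714). With Igfbp1 the r of Ppp1r3b was 0.508 and did not pass (adjusted permutation p = 0.109), and that of the median of the 88 other GT-run probes was 0.590. With Ppargc1a, Angptl4 and Pdk4 the r of Ppp1r3b was -0.021, -0.119 and -0.176. Ppp1r3g rose with Ppargc1a, the fasting coactivator PGC-1alpha (r = 0.567, rho = 0.584, adjusted permutation p = 0.0460). Its r was 0.733, 0.621 and 0.640 within slides 1, 2 and 3 and 0.608 without the 2 mice most extreme in Ppp1r3g. The call is close to the threshold, and it was lost without mouse 4 of GLU+GAL (r = 0.578, adjusted permutation p = 0.0544) and without mouse 12 (r = 0.563, adjusted permutation p = 0.0654). It was also lost with the scanner software's processed signals (r = 0.478, adjusted permutation p = 0.147), with median centring (0.402, adjusted permutation p = 0.189), in Cy5 alone (0.542, adjusted permutation p = 0.0714) and in the deposited value table (0.517, adjusted permutation p = 0.0785). With Igfbp1 and Pck1 the r of Ppp1r3g was 0.518 and 0.357, and neither passed (adjusted permutation p = 0.0929 and 0.317). With G6pc, Pdk4 and Angptl4 the r of Ppp1r3g was 0.042, 0.024 and -0.188. No pair of Ppp1r3c, Ppp1r3d or Phka2 with the 14 genes passed.

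**Figure D4:**
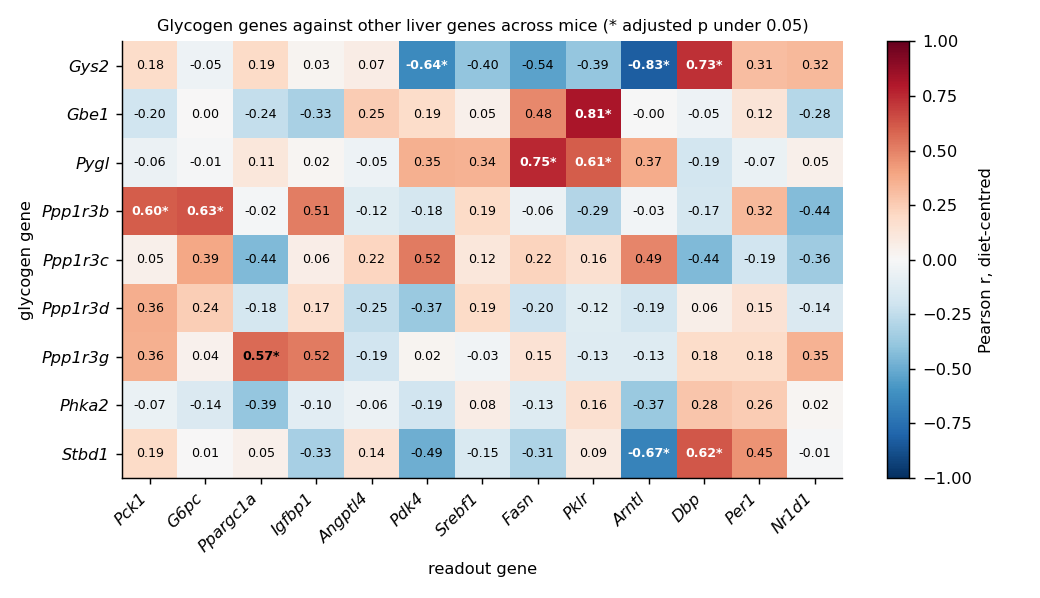
Pearson correlation across 24 mice (23 for Ppp1r3b) of each glycogen gene (rows) with each of 13 genes of feeding state and time of day (columns), diet means removed; red is positive, blue negative, and bold values with a star passed an adjusted p of 0.05. The 11 starred pairs lie in the rows of Gys2, Gbe1, Pygl, Ppp1r3b, Ppp1r3g and Stbd1, and the lowest value is -0.83 for Gys2 and Arntl.

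**Figure D5:**
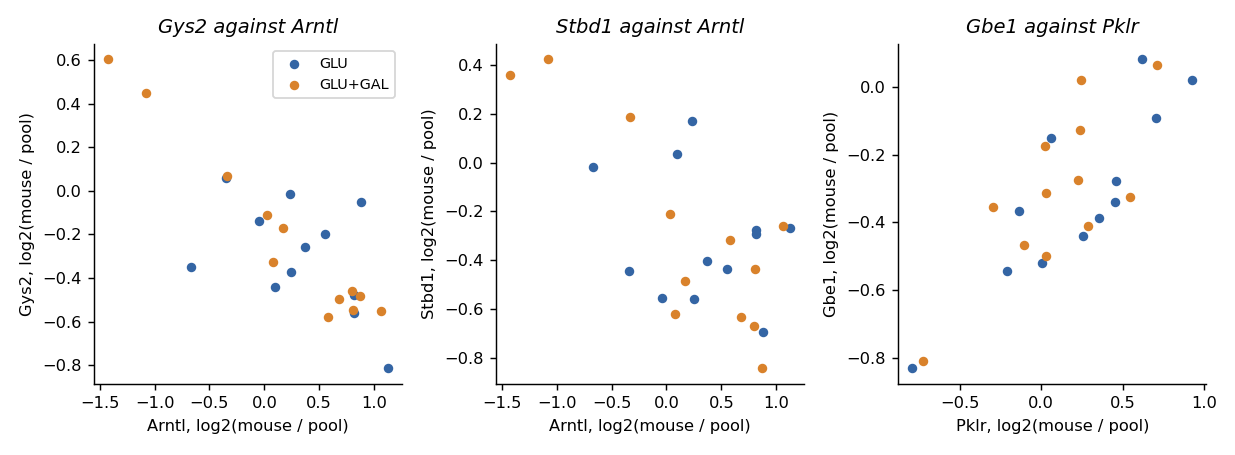
Log2 ratio over the pool of Gys2 and Stbd1 against Arntl, and of Gbe1 against Pklr, 1 point per mouse (12 GLU in blue, 12 GLU+GAL in orange). Mice 7 and 8 of GLU+GAL lie at the upper left for Gys2 and Stbd1, with Arntl at -1.08 and -1.42, and mouse 12 of GLU and mouse 3 of GLU+GAL at the lower left for Gbe1.

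The genes whose log2 ratios were most like those of each member across the mice are given as a description. They are the 3 highest r of the genes tested that have a RefSeq symbol, over 24 arrays that share a pool and a scale per array. For Gys2 they were Pnpla2, the triglyceride lipase ATGL (0.871), Bnip3 (0.820) and Akap11 (0.815). For Stbd1 they were Per2, a repressor of the clock (0.793), Usp2 (0.788) and Slc5a6, a vitamin transporter (0.770). Gbe1 was most like Nrn1 (0.833), Pklr (0.815) and Tbcel (0.813), and Pygl most like Cyb5r3 (0.860), Thrsp (0.809) and Elovl6 (0.805), the last a fatty acid elongase. Ppp1r3c was most like Rusc2 (0.833), Net1 (0.804) and Mir22hg (0.774). For Ppp1r3b all 3 were the repeat-bearing probes shown above, Sp110 (0.954), Gm35410 (0.946) and Synpo2l (0.944). Ppp1r3g had the loosest neighbours, Cela2a (0.693), Amn1 (0.682) and Ppa2 (0.660), although it varied most. Phka2 was most like Eva1b (0.740), Plcl2 (0.733) and Uvrag (0.715), and Ppp1r3d, near background, most like Ercc2 (0.811), Gm16973 (0.782) and Bbip1 (0.769).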

How the data were processed

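The authors deposited scanner files with spot intensities of both dyes, made, per the submitters' processing notes, by Agilent Feature Extraction 10.7.3.1, and a table of log2 values whose scaling no source used here gives. With the mean of each spot over the arrays removed, each column of that table resembled its own array's Cy5 signal most. Without this step the r of a column with its own array was from 0.993 to 0.999, and each column had a median of 8.6. Local background was removed from mean signals by normexp (offset 50) and log2 ratios were loess-normalised per array with zero-weighted controls, using limma 3.58.1, R 4.3.3 and the data.table package in version 1.17.8. Outlier-flagged spots were left out and spots of a probe averaged. Probes tested had Cy5 well above background on 6 or more arrays of a diet. Diets were compared with lmFit and eBayes, 2-sided, with Benjamini-Hochberg adjustment over 18653 genes. Correlations used 2-sided permutation tests with 100000 resamples, adjusted within each family of pairs. The resamples shuffled the mice without regard to slide or replicate number, so these p-values take the mice as independent. Each mouse was 1 replicate, and the number of arrays limits the precision. Both steps were tested on simulated data. Members, lists and named genes (all members, pathway genes at an unadjusted p under 0.05 with reference genes, readouts and pairs past the threshold, the 3 most alike genes) were chosen with earlier results of these data known, and the GT run was examined after values were seen. Results of 2 listed genes are not reported here. Plots used matplotlib 3.10.9.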

Additional observations from a re-analysis of the deposited data

How the results depend on the processing

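No gene was called under any of the 13 other settings that used all mice or within any slide, and leaving out 1 mouse gave 0 to 1 calls (the 1 without mouse 3 of GLU). No member was called under any of these. The sign of 3 differences changed with the mouse left out: Gbe1 ranged from -0.032 to 0.061, Ppp1r3d from -0.027 to 0.043 and Stbd1 from -0.046 to 0.070. Ppp1r3b was 0.012 in the deposited value table, which includes mouse 6 of GLU, and Ppp1r3d -0.026 with median centring in place of loess. Signs opposite to the whole were seen within slide 1 for Pygl (0.012), Ppp1r3d (-0.037) and Stbd1 (-0.020), within slide 2 for Gys2 (-0.21), Gbe1 (-0.032), Ppp1r3c (-0.26), Ppp1r3d (-0.10) and Stbd1 (-0.0045), and within slide 3 for Gbe1 (-0.16). The r of Pygl with Fasn was -0.049 within slide 2. Ppp1r3d has no value when probes must be well above background on all arrays.

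Pairs of members past the threshold numbered 2 with the scanner software's processed signals and 12 with median centring, against 0. Pairs of members with readouts past it numbered 6 with processed signals, 19 with median centring, 7 in Cy5 alone and 17 with slide and diet centred, against 11, and 5, 8, 7 and 11 of the 11 were among them. The cause was not tested.

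The diets share replicate numbers 1 to 12. Mice of the same number correlated from -0.379 to 0.522 (median 0.164), over 0.1 in 8 of 12. Of the 12, 2 correlated best with their own number. Whether the numbers pair the mice was not tested. If they do, the mice are not independent, and the permutation p-values of the correlations, which ignore the numbers, do not hold as given. With the replicate number as a block 0 genes were called, so the block changed no call, and 1124 against 804 passed at an unadjusted p of 0.05. Ppp1r3b then differed by -0.13 (adjusted p = 0.760, limma). The SE of Ppp1r3g was 0.11 with the block against 0.22 without it, for a difference of 0.15 (adjusted p = 0.917 with the block, limma).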
